A study of Mus musculus with 8 samples.

Results

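The genes described here were Trp53inp1 and 9 genes of the p53 and senescence programs, Trp53, Cdkn1a, Cdkn2a, Cdkn2b, Mdm2, Ccng1, Gdf15, Bbc3 and Sesn2, which make 10 of the 35896 genes measured in mouse aorta. Trp53inp1 was chosen on its measured values, since the study counted it among the genes that were lower both in AngII and in AngII+3W than in CTRL. Its values in these comparisons are therefore given as a description with no test. The other 9 genes were chosen by name, to ask whether p53, its targets and the cell cycle inhibitors used as senescence markers followed Trp53inp1. RNA was sequenced from the aortas of C57BL6 male mice without a genetic modification. In the AngII, AngII+2W and AngII+3W groups, an osmotic minipump implanted at 11 weeks of age released angiotensin II, the peptide hormone that constricts arteries and raises blood pressure, at 2.8 mg/kg/d for 2 weeks. Mice were sacrificed when the infusion ended (AngII) or after a further 2 weeks (AngII+2W) or 3 weeks (AngII+3W), and CTRL mice were untreated, age-matched littermates whose time of sacrifice is not in the labels. Each group had 2 libraries, and each library held the pooled tissue of 2 mice, so that the spread between libraries is a spread between pools.

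p53, the product of Trp53, is a transcription factor that is kept low by the ubiquitin ligase Mdm2 and is stabilized by DNA damage and other stress. It then activates genes that halt the cell cycle, such as Cdkn1a, that promote apoptosis, such as Bbc3, that restrain growth and limit oxidative damage, such as Sesn2, and that act back on p53, such as Mdm2 and Trp53inp1. Cells that stop dividing for good, among them vascular smooth muscle cells exposed to angiotensin II, often carry more of the CDK inhibitors encoded by Cdkn1a, Cdkn2a and Cdkn2b and secrete stress factors.

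Each library held from 18130441 to 21498200 counts in all. Levels are given as CPM, the count relative to the library total after TMM scaling, and a floor of detection of 3 counts corresponded to 0.140 to 0.165 CPM. None of the 9 smooth muscle and 7 endothelial markers was at 0 in any library. The same held for the fibroblast, adipocyte, cardiac muscle and Schwann cell markers, so that detection alone does not identify the tissue. The AngII+3W library of replicate 1 stood apart, with 2456 CPM summed over 7 skeletal muscle markers against 5.32 to 74.0 in the other libraries. Cardiac muscle markers summed to 5275 and 2333 CPM in the CTRL libraries and 1424 and 912 in those of AngII. They summed to 243 and 83.0 CPM in AngII+2W, and to 6036 and 468 in AngII+3W. The part of this cardiac RNA in the levels of the genes described here was not tested. Of the 10 genes, 9 had enough counts to be tested, while Cdkn2a did not.

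Trp53inp1 encodes a stress-induced nuclear protein that is itself a p53 target, favors the activation of p53 and takes part in autophagy. It spans chr4:11156431-11174379 on the plus strand of GRCm38. CTRL libraries held 210.3 and 151 CPM of it, AngII libraries 94.1 and 87.8, AngII+2W libraries 153 and 163, and AngII+3W libraries 90.3 and 76.1. Both AngII libraries and both AngII+3W libraries thus lay below both CTRL libraries, while the AngII+2W libraries lay within the CTRL range. These levels gave log2 fold changes against CTRL of -0.99 (SE 0.181) in AngII and -1.12 (SE 0.181) in AngII+3W. In AngII+2W the log2 fold change was -0.19 (SE 0.179), which did not pass the threshold (FDR 0.770, edgeR quasi-likelihood test with Benjamini-Hochberg adjustment). The CTRL libraries set much of the size, as leaving out replicate 1 or 2 of CTRL gave -0.73 or -1.22 in AngII and -0.86 or -1.35 in AngII+3W.

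Among the AngII groups, the libraries of AngII+2W held more Trp53inp1 than those of AngII, with a log2 fold change of 0.80 (SE 0.180). Those of AngII+3W lay below those of AngII+2W (-0.92, SE 0.181) and overlapped with those of AngII (-0.13, SE 0.180). Each of these comparisons uses a group on whose low level the gene was chosen, so that the values are a description with no test.

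**Figure D1:**
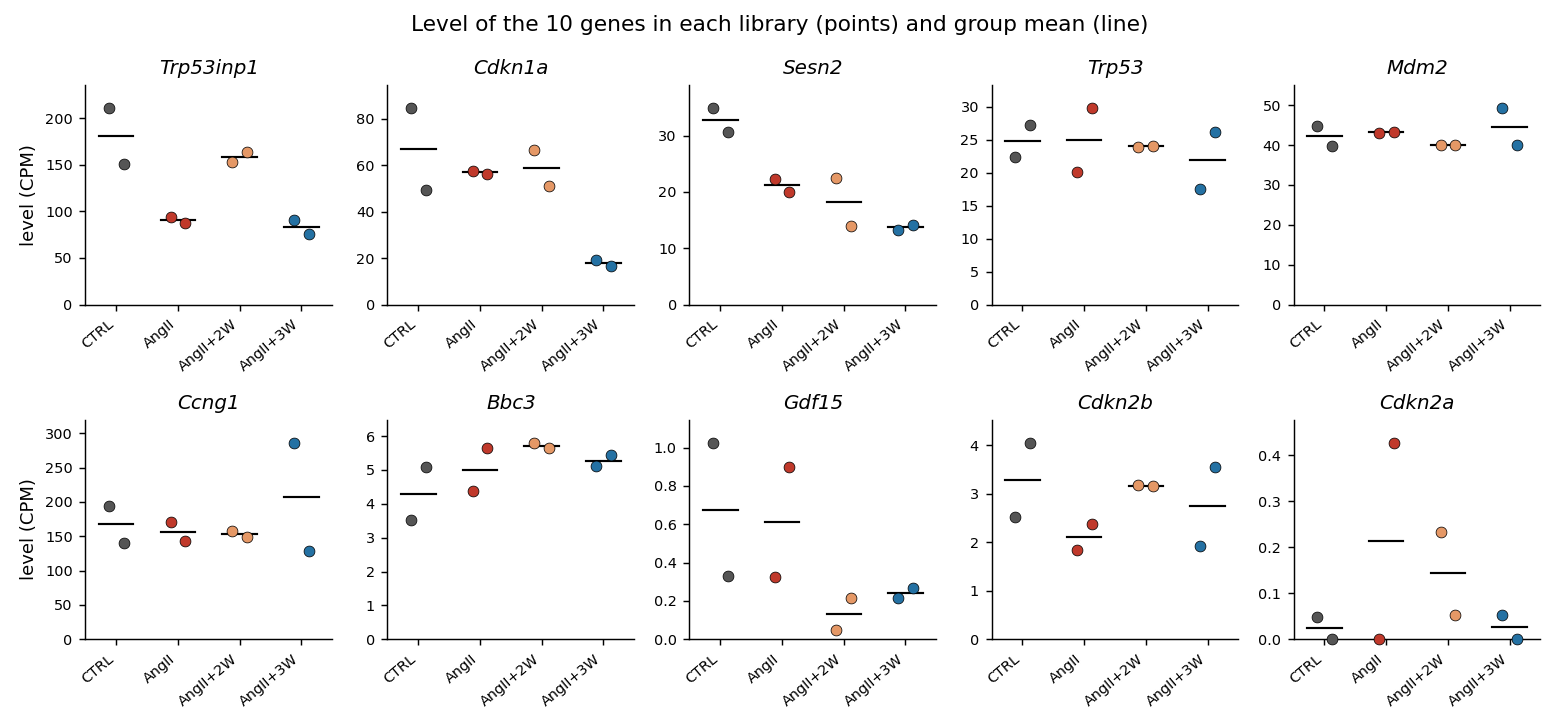
Level in CPM (vertical axes, from 0) of the 10 genes in each of the 8 libraries (points), by group on the horizontal axes, with the mean of the 2 libraries as a line. Trp53inp1 was low in AngII and AngII+3W, Cdkn1a was low in the AngII+3W libraries (19.2 and 16.8 CPM), and Ccng1 had a single high library in AngII+3W (285 CPM).

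Cdkn1a encodes p21, the inhibitor of cyclin-dependent kinases through which p53 arrests the cell cycle, and spans chr17:29090976-29100727 on the plus strand. Its level was 84.5 and 49.3 CPM in the CTRL libraries, 57.4 and 56.4 in those of AngII, 66.7 and 51.2 in those of AngII+2W, and 19.2 and 16.8 in those of AngII+3W. Its libraries in AngII and AngII+2W lay between the CTRL libraries, and both AngII+3W libraries lay below every other library. The log2 fold change against CTRL was -0.23 (SE 0.247, FDR 0.671) in AngII and -0.18 (SE 0.246, FDR 0.861) in AngII+2W. In AngII+3W Cdkn1a fell by 1.89 on the log2 scale (SE 0.258, FDR 0.0455). The study drew a network of genes that included Cdkn1a from this same comparison, so that this call is not independent evidence. The call was lost in 4 of 12 other settings, 11 of them with all 8 libraries and 1 with only the 2 groups compared. Fewer of all genes passed in these 4 than the 0.285% by the edgeR quasi-likelihood test. The shares were 0.00582% with library totals alone, 0.256% with limma-voom, 0% with only the 2 groups compared and 0.0233% with the replicate block. Fits that left out a library left 1 library in a group, and only their log2 fold changes are given. These were -2.24 without CTRL replicate 2, -1.85 without AngII+3W replicate 2 and -1.46, the smallest in size, without CTRL replicate 1. With replicate number as a block, the FDR was 0.0585, and without the AngII+3W library rich in skeletal muscle RNA the log2 fold change was -1.999. Mitochondrial genes took 18.3% and 13.5% of the counts in the AngII+3W libraries against 8.15% to 13.0% in the other 6, and with these genes removed the log2 fold change of Cdkn1a was -1.89 (FDR 0.0448).

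The direct comparison of AngII+3W with AngII gave a log2 fold change of -1.66 for Cdkn1a (SE 0.257, FDR 0.0308), with no overlap of the libraries. The call was lost when only the 2 groups were fitted, where 0% of all genes passed. Over the 8 fits that left out a library, the log2 fold changes of Cdkn1a were between -1.76 and -1.61. Its difference between AngII+3W and AngII+2W was of like size (-1.71, SE 0.257) and did not pass the threshold (FDR 0.157).

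Sesn2 encodes sestrin 2, a stress-induced protein that restrains mTORC1 and is activated by p53 as well as by the integrated stress response factor ATF4. It spans chr4:132492032-132510501 on the minus strand. It was at 34.8 and 30.6 CPM in CTRL libraries, 22.4 and 19.9 in AngII libraries, 22.5 and 13.96 in AngII+2W libraries, and 13.3 and 14.2 in AngII+3W libraries. Every library of the 3 AngII groups was below both CTRL libraries, and the group means were 32.7 ± 2.98 CPM (SD, n = 2) in CTRL and 21.2 ± 1.6997, 18.3 ± 6.07 and 13.7 ± 0.641 CPM in AngII, AngII+2W and AngII+3W. None of the differences passed an FDR of 0.05 by the edgeR quasi-likelihood test. The log2 fold changes against CTRL were -0.63 (SE 0.219, FDR 0.155), -0.84 (SE 0.220, FDR 0.291) and -1.25 (SE 0.223, FDR 0.0700). The last of these passed in 3 of 12 other settings, DESeq2 among them. In these 3, 0.819% to 3.4% of all genes passed, against 0.285% by the edgeR quasi-likelihood test.

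The genes at the center of the pathway did not pass the test in any comparison. Trp53 (chr11:69580359-69591873, plus strand) was at 22.3 and 27.2 CPM in CTRL libraries, 20.1 and 29.7 in AngII libraries, 23.9 and 24.0 in AngII+2W libraries, and 17.6 and 26.1 in AngII+3W libraries. Mdm2 (chr10:117688875-117710758, minus strand), which p53 induces and which in turn degrades p53, ranged from 39.8 to 49.2 CPM over all 8 libraries. For both genes the groups overlapped in each comparison with CTRL. The log2 fold changes of Trp53 were 0.01, -0.05 and -0.18 (SE 0.243 to 0.244) and those of Mdm2 0.03, -0.08 and 0.07 (SE 0.133), with FDR of at least 0.805 for both. The direction of the first value of Trp53 turned under limma-voom and with the replicate block.

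Ccng1 (chr11:40748552-40755311, minus strand), which encodes cyclin G1 and is a strong p53 target in many cell types, was at 194 and 141 CPM in CTRL libraries, 170.2 and 143 in AngII libraries, 157 and 148 in AngII+2W libraries, and 285 and 129 in AngII+3W libraries. A single AngII+3W library, replicate 1, was above all others, and this is the library with the skeletal muscle markers, whose part in the value was not tested. The log2 fold change of Ccng1 in AngII+3W was 0.31 (SE 0.337, FDR 0.752) and turned to -0.38 without that library. Bbc3 (chr7:16308393-16318205, plus strand), which encodes the pro-apoptotic protein PUMA, ranged from 3.51 to 5.79 CPM, and its AngII+2W and AngII+3W libraries were above both CTRL libraries. Its log2 fold changes of 0.22, 0.41 and 0.29 (SE 0.242 to 0.243) did not pass the threshold (FDR 0.608 to 0.679).

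Of the senescence markers of the Ink4 locus, Cdkn2b (chr4:89306299-89311039, minus strand), which encodes p15, was at 2.53 and 4.05 CPM in CTRL libraries, 1.84 and 2.37 in AngII libraries, 3.17 and 3.17 in AngII+2W libraries, and 1.94 and 3.55 in AngII+3W libraries. Its AngII libraries lay below the CTRL libraries, with a log2 fold change of -0.64 (SE 0.368, FDR 0.390). Cdkn2a (chr4:89274471-89294653, minus strand), whose transcripts encode p16 and p19Arf and share 1 value in the table, was barely detected. The CTRL libraries held 1 and 0 counts, those of AngII 0 and 9, those of AngII+2W 5 and 1, and those of AngII+3W 1 and 0, so that a difference between groups was not detectable at this depth. Gdf15 (chr8:70629393-70632456, minus strand), a secreted stress cytokine, had 21 and 7 counts in CTRL libraries, 6 and 19 in AngII libraries, 1 and 4 in AngII+2W libraries, and 4 and 5 in AngII+3W libraries. Both later groups lay below both CTRL libraries, with log2 fold changes of -2.36 (SE 0.924, FDR 0.414) and -1.46 (SE 0.846, FDR 0.528) that rest on few counts.

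Counted together, none of the 8 genes tested apart from Trp53inp1 passed an FDR of 0.05 in AngII against CTRL by the edgeR quasi-likelihood test, where 5.1% of all 17182 genes tested did. Sesn2 alone had an unadjusted p under 0.05 there, as did 3474 of all 17182 genes. DESeq2 called 0 of the 8 as well, where it called 9.24% of all genes. In AngII+2W against CTRL, 0 of 9 genes passed, where 0% of all genes did. An unadjusted p under 0.05 was reached by 2 of them (Sesn2 and Gdf15) and by 1838 of all 17182 genes. DESeq2 called 1 (Sesn2), where it called 2.17% of all genes. In AngII+3W, 1 of 8 (Cdkn1a, lower) passed, where 0.285% of all genes passed and 0.268% passed as lower. The medians of the log2 fold changes of these genes were -0.11, -0.13 and -0.22 in the 3 comparisons, beside -0.01, 0.00 and 0.03 for all genes tested.

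In the direct comparisons, 1 of the 8 genes apart from Trp53inp1 passed in AngII+3W against AngII (Cdkn1a, lower), where 1.61% of all genes passed and 1.32% passed as lower. By the edgeR quasi-likelihood test 0 of these 8 passed in AngII+2W against AngII, where 0.163% of all genes did, and 0 of 8 in AngII+3W against AngII+2W, where 0% of all genes did. In each of the latter, 1 of the 8 had an unadjusted p under 0.05, which was Gdf15 in the first and Cdkn1a in the second. Of all 17182 genes, 2581 in the first and 1518 in the second did. DESeq2 called 0 of the 8 in the first, where it called 3.99% of all genes. In the second it called 1 (Cdkn1a), where it called 1.29% of all genes.

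**Figure D2:**
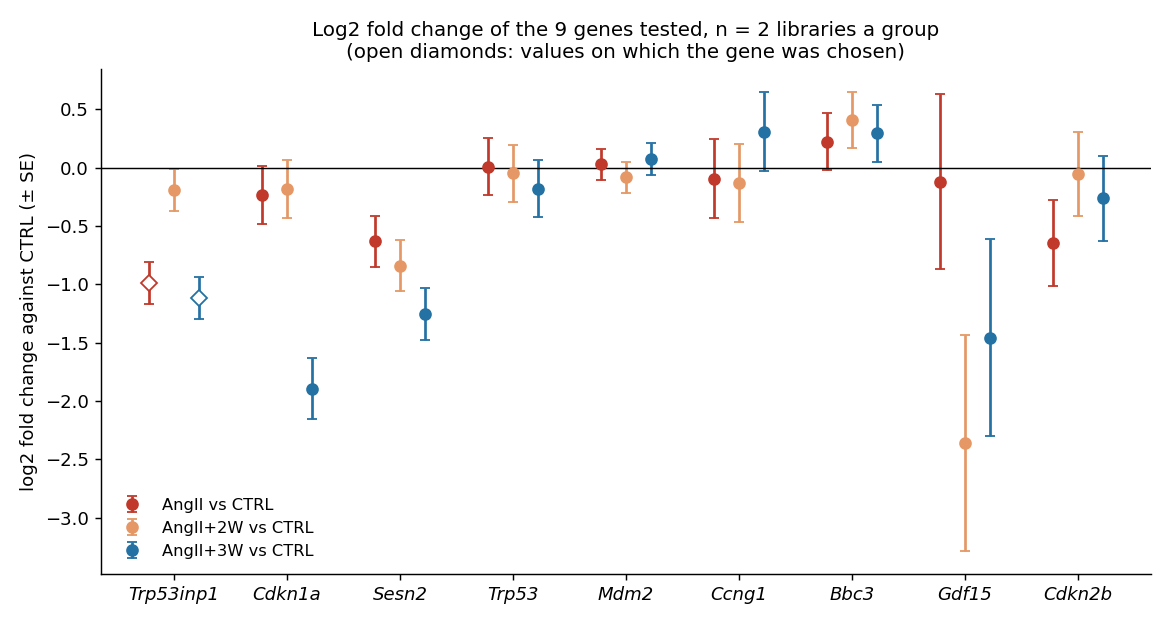
Log2 fold change against CTRL (vertical axis, points, with the standard error as bars) of the 9 genes tested, in AngII, AngII+2W and AngII+3W, with 2 libraries in each group. Values are between -0.18 and 0.31 for Trp53, Mdm2 and Ccng1, are -0.63, -0.84 and -1.25 for Sesn2, and reach -1.89 for Cdkn1a in AngII+3W.

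To compare levels between genes, CPM was divided by the length of all annotated exons in kilobases. Ccng1 had the highest level per kilobase in every group, with means between 43.5 and 59.0 CPM per kilobase. Trp53inp1 and Cdkn1a followed in CTRL, at 27.9 ± 6.52 and 18.8 ± 7.01 CPM per kilobase (SD, n = 2), a difference within their spread. In AngII, Cdkn1a (16.0 CPM per kilobase) came before Trp53inp1 (14.04). In AngII+2W, Trp53inp1 came first of the pair (24.4 ± 1.16 against 16.6 ± 3.10). In AngII+3W, Trp53inp1 (12.9 ± 1.55 CPM per kilobase) was followed by Mdm2 (8.77 ± 1.28), Trp53 (5.40 ± 1.49) and Cdkn1a (5.07 ± 0.494), the last of which did not differ beyond their spread. Bbc3 and Cdkn2b stayed between 1.51 and 2.69 CPM per kilobase, and Gdf15 and Cdkn2a were below 0.37 CPM per kilobase.

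Across the 8 libraries, the log2 CPM of Trp53inp1 correlated with that of Cdkn1a (Pearson r = 0.706) and Sesn2 (r = 0.605), and less with the other members, between -0.39 for Bbc3 and 0.34 for Cdkn2b. Cdkn1a and Sesn2 had a correlation of 0.742. These values are a description over 8 points that fall into 4 groups. At r = 0.706, Cdkn1a took rank 801 among the 17181 other genes tested.

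The 5 genes most like Trp53inp1, among 11724 with a mean of at least 5 CPM, were Yap1 (r = 0.983), Zbtb16 (0.974), Pnrc1 (0.968), Tspan2 (0.963) and Nek9 (0.962), and none of the other p53 targets described here was among them. The likeness chose these genes, so that their values are a description. Zbtb16, a zinc finger transcription factor, had log2 fold changes of -1.15, -0.46 and -1.21 in AngII, AngII+2W and AngII+3W, and Tspan2, a tetraspanin, of -1.17, -0.36 and -1.21. Yap1, the transcriptional coactivator of the Hippo pathway, had log2 fold changes of a smaller size, at -0.35, -0.05 and -0.33. The 5 genes most like Cdkn1a were Ctnnb1 (r = 0.976), 9530068E07Rik (0.970), Nfil3 (0.961), Arntl (0.951) and Ywhah (0.951). Arntl, which encodes the core clock factor BMAL1, and Nfil3, a repressor with a circadian rhythm, were at 8.12 and 10.1 CPM and at 5.21 and 7.25 CPM in AngII+3W, below every other library.

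**Figure D3:**
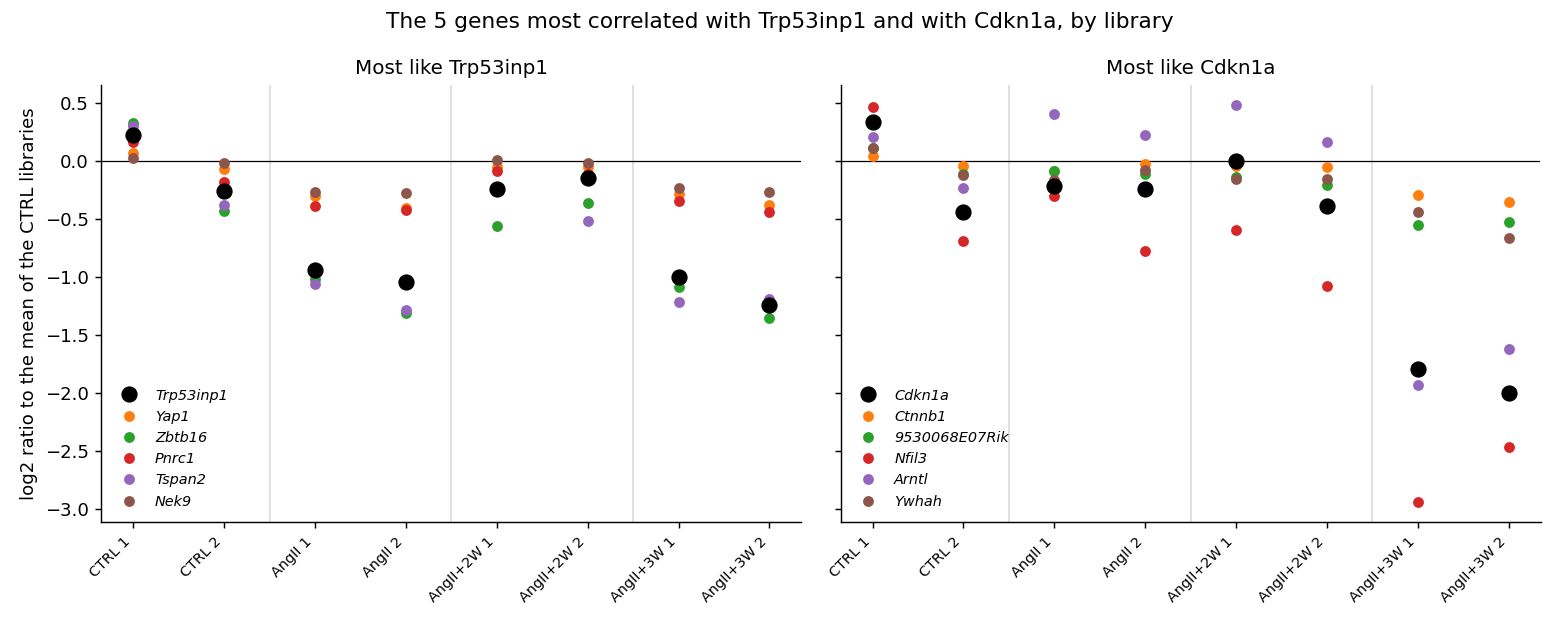
Log2 ratio to the mean of the CTRL libraries (vertical axes) in each of the 8 libraries (horizontal axes) of Trp53inp1 (left, black) and Cdkn1a (right, black) with the 5 genes most correlated with each (colors). The genes on the left are low in AngII and AngII+3W and near the CTRL libraries in AngII+2W, while those on the right are lowest in AngII+3W.

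Since Arntl and Nfil3 were among the genes most like Cdkn1a, 12 clock genes were looked at, a list chosen after these values were seen and given without a test. In AngII+3W, Arntl (mean 9.11 CPM against 31.0 in CTRL), its partner Npas2 (4.81 against 21.9) and Nfil3 (6.23 against 39.9) were low together with Cdkn1a. Of the genes that peak in the opposite phase of the clock, several were at higher levels. Dbp stood at 121 CPM against 33.6 in CTRL, Per3 at 200.4 against 80.7, Nr1d2 at 188 against 106 and Tef at 234 against 134, with both AngII+3W libraries above every other library for each of these 4. Both AngII+3W libraries were also highest for Hlf (mean 68.4 CPM against 36.0). Those of Nr1d1 (191 against 173) and Per2 (72.9 against 56.1) overlapped the CTRL libraries. Clock (112 against 143 CPM) and Per1 (129.96 against 178) were not high. The hour of sacrifice is not in the labels, and the part of circadian phase in the level of Cdkn1a was not tested.

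**Figure D4:**
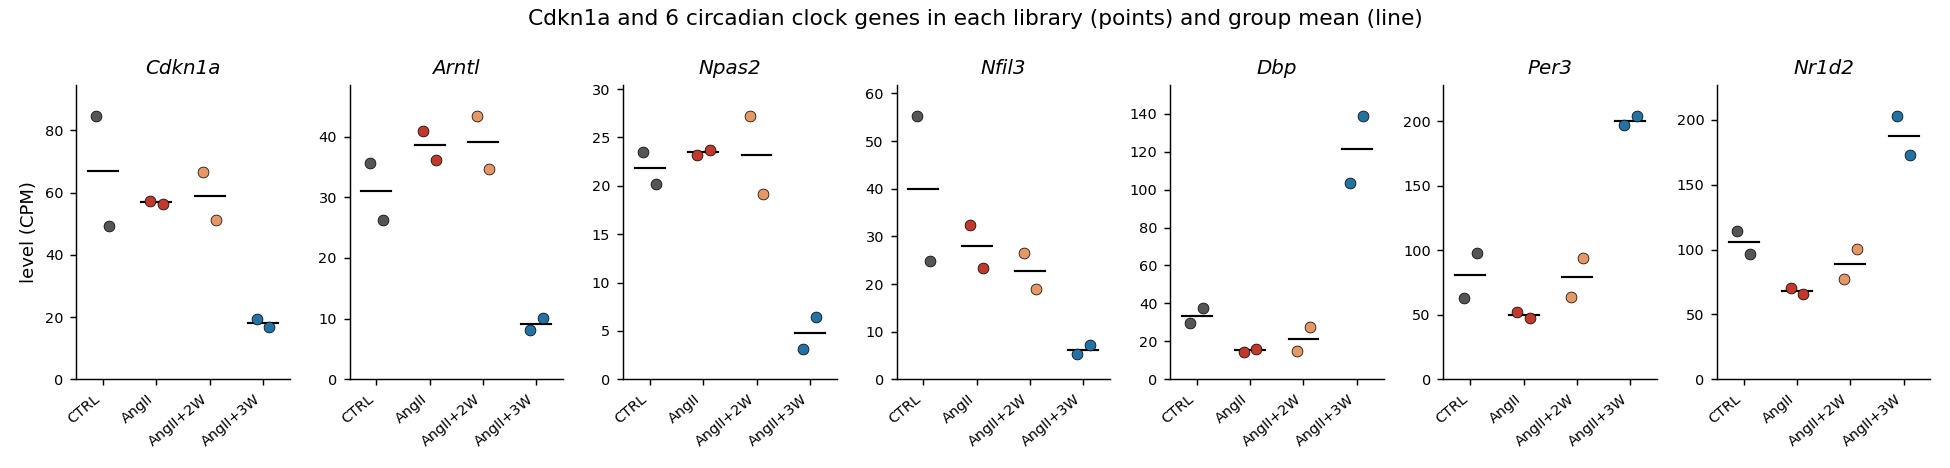
Level in CPM (vertical axes, from 0) of Cdkn1a and 6 clock genes in each library (points), by group on the horizontal axes, with the mean of the 2 libraries as a line. In AngII+3W, Cdkn1a, Arntl, Npas2 and Nfil3 were at their lowest and Dbp, Per3 and Nr1d2 at their highest.

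Markers of cell types also moved with the groups. The 9 smooth muscle markers summed to 10350 and 8026 CPM in CTRL libraries, 1919 and 2437 in AngII libraries, 4325 and 3923 in AngII+2W libraries, and 1972 and 3764 in AngII+3W libraries, so that, as for Trp53inp1, the AngII+2W libraries lay above those of AngII and AngII+3W and the CTRL libraries were highest on average. Of these markers, 8 of 9 passed as lower in AngII, beside 2.2% of all genes (Acta2, the smooth muscle actin, at -2.18), and 4 of 9 in AngII+3W, beside 0.268% (Acta2 at -2.56). Acta2 is, like Trp53inp1, among the genes the study counted as lower in both comparisons, so that its calls are not independent evidence. In whole tissue, fewer cells of a type and less RNA per cell cannot be told apart. The 7 macrophage and leukocyte markers summed to 219.7 and 160.0 CPM in CTRL and 463 and 627 in AngII (168 to 283 in the later groups), with 5 of 7 passing as higher, beside 2.9% of all genes (Ptprc at 1.30), and 2 of 6 fibroblast markers rose (Lum at 2.90, Col1a1 at 3.03). None of these markers was at 0 in any library, and their part in the levels of Trp53inp1, Sesn2 and Cdkn1a was not tested. T and B cell markers summed to between 11.3 and 16.8 CPM and adipocyte markers to between 1955 and 3856 CPM. Endothelial markers summed to between 909 and 1240 CPM in all libraries, with 0 of 7 called in any comparison with CTRL by the edgeR quasi-likelihood test (with 1, 0 and 1 at an unadjusted p under 0.05 in these 3 comparisons). Of all 17182 genes, 5.1%, 0% and 0.285% were called there, and 3474, 1838 and 2150 had an unadjusted p under 0.05.

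Other p53 targets were taken from 3 lists, for arrest (11 genes), apoptosis (13) and metabolism and repair (17), of which 40 of 41 could be tested. In AngII they moved in both directions. Ckap2, which binds the mitotic spindle and is expressed in dividing cells, rose from 0.926 and 1.08 CPM in CTRL to 4.32 and 3.93 CPM, by 2.03 on the log2 scale (SE 0.352, FDR 0.0228). Eda2r, the ectodysplasin A2 receptor of the TNF receptor family, rose by 1.76 (SE 0.316, FDR 0.0257), and Plk2, a polo-like kinase, rose by 0.96 (SE 0.202, FDR 0.0397). Btg2, an antiproliferative gene that is also induced by growth factors, fell from 125 and 87.8 CPM to 42.8 and 51.9, a log2 fold change of -1.17 (SE 0.225, FDR 0.0321). In all, 3 of 40 passed as higher, where 2.9% of all genes did, and 1 of 40 as lower, where 2.2% did. The median over the 40 genes was 0.04, beside -0.01 for all genes. By list, the medians were 0.31 for arrest, 0.21 for apoptosis and -0.09 for metabolism and repair. The most abundant targets of the last 2 lists did not pass, among them Ei24 (0.21, FDR 0.432) and Apaf1 (0.57, FDR 0.138) of apoptosis, and Gpx1, a glutathione peroxidase (0.04, FDR 0.913). Which targets passed changed with the library left out, in fits that had 1 library in a group. The number of all genes that passed changed in these fits as well.

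In AngII+2W, 0 of the 40 targets passed by the edgeR quasi-likelihood test, where 0% of all genes did. An unadjusted p under 0.05 was reached by 4 of the 40, a share near that of all genes (1838 of 17182). DESeq2 called 1 (Btg2), where it called 2.17% of all genes. In AngII+3W, 1 of 40 passed (Ddit4, lower), where 0.285% of all genes passed and 0.268% passed as lower. The medians of the 40 genes in these groups were -0.01 and -0.02. By the edgeR quasi-likelihood test Btg2 passed in neither group. Its libraries still lay below both CTRL libraries, at 62.5 and 49.8 CPM in AngII+2W and 45.6 and 60.3 CPM in AngII+3W. Ddit4, which encodes the mTORC1 inhibitor REDD1 and answers to p53, hypoxia and glucocorticoids, was at 36.4 and 30.4 CPM in CTRL libraries, 23.5 and 23.9 in AngII libraries, 30.0 and 30.1 in AngII+2W libraries, and 14.7 and 16.3 in AngII+3W libraries. Its libraries in all 3 AngII groups lay below both CTRL libraries, though those of AngII+2W lay only just below the lower CTRL library. Those of Trp53inp1 in AngII+2W lay within the CTRL range. The log2 fold changes of Ddit4 were -0.50 (FDR 0.0804), -0.15 (FDR 0.752) and -1.11 (FDR 0.0455). As for Trp53inp1 (-0.19 in AngII+2W), the AngII+2W value was the smallest in size of the 3. Ddit4 was also part of the network the study drew from the last comparison, so that this call is not independent evidence. The call was lost with library totals alone, only the 2 groups compared and the replicate block. In that order, 0.00582%, 0% and 0.0233% of all genes passed there. Ckap2 was at 0.860 and 0.645 CPM in AngII+3W and was lower there than in AngII libraries (log2 fold change -2.44, SE 0.367, FDR 0.0294).

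**Figure D5:**
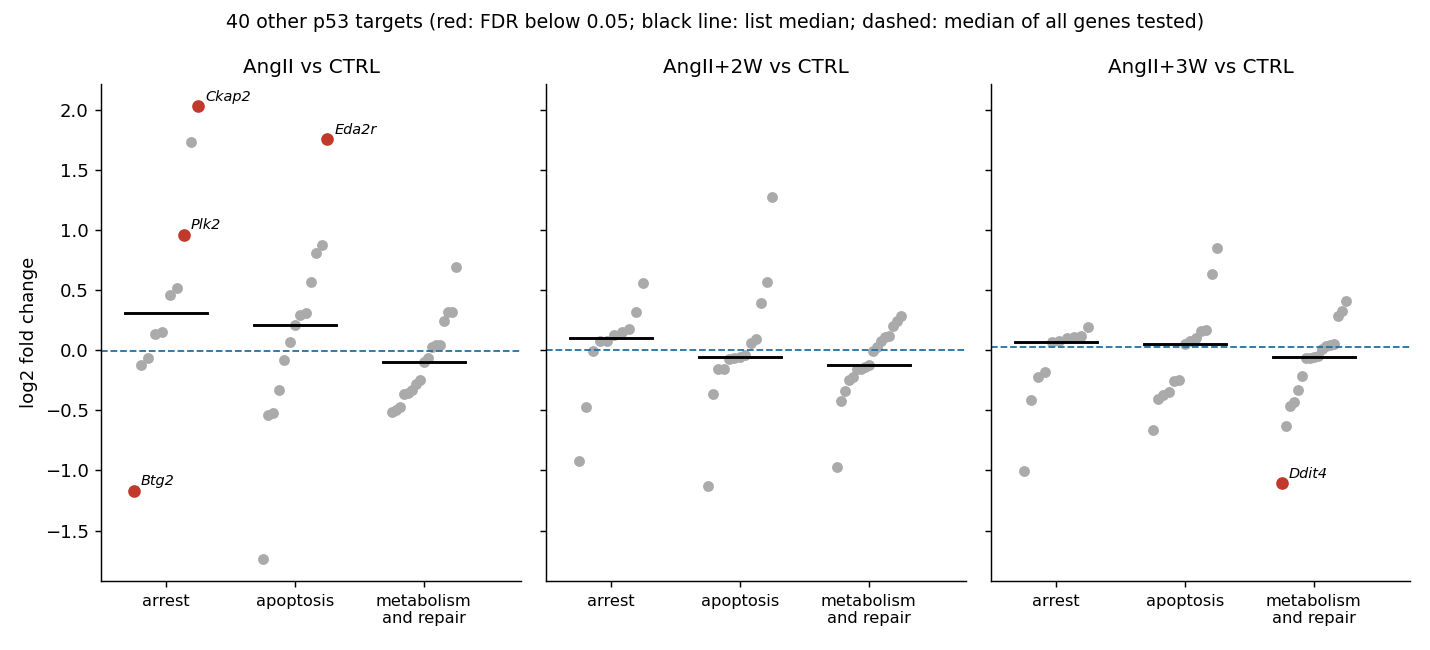
Log2 fold change against CTRL (vertical axis) of the 40 other p53 targets tested, by list on the horizontal axis and by comparison in 3 panels, with list medians (black lines), the median of all genes tested (dashed) and genes past an FDR of 0.05 in red. The list medians lie between -0.13 and 0.31, and the called genes are Ckap2, Eda2r, Plk2 and Btg2 in AngII and Ddit4 in AngII+3W.

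Of 16 regulators of p53 tested, 1 passed in AngII, a share near that of all genes (5.1%, and 2.9% as higher). E2f1, a transcription factor of S phase entry, rose in AngII from 2.58 and 2.59 to 7.13 and 7.06 CPM, by 1.45 on the log2 scale (SE 0.262, FDR 0.0259). The most abundant, the kinase gene Hipk2 (162 to 259 CPM) and the Mdm2 relative Mdm4 (133 to 173 CPM), had log2 fold changes between -0.24 and 0.21. The paralog of Trp53inp1, Trp53inp2, which acts in autophagy, did not pass in any comparison with CTRL (-0.24, -0.53 and -0.06, FDR 0.345 to 0.924), at 209 to 348 CPM. Among 7 Atg8 and related autophagy genes listed with it, 1 passed in AngII, where 2.2% of all genes passed as lower. Map1lc3a, which encodes an LC3 protein, fell in AngII from 86.2 and 93.9 to 59.9 and 54.0 CPM (log2 fold change -0.66, SE 0.128, FDR 0.0321). Its AngII+2W and AngII+3W libraries also lay below both CTRL libraries, without passing (-0.48, FDR 0.291, and -0.46, FDR 0.193).

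Cell cycle and senescence genes outside the p53 lists are set here beside the 2.9% of all genes that passed as higher in AngII. Of 15 proliferation genes, 10 rose in AngII (Mki67 by 2.30, FDR 0.00530, and Top2a by 2.03, FDR 0.00778), with a list median of 1.97, and the medians were 0.15 and 0.16 in AngII+2W and AngII+3W. By the edgeR quasi-likelihood test 0 of 15 passed in either later group, with 0 at an unadjusted p under 0.05 in both. Of all 17182 genes, 0% and 0.285% passed in these groups, and 1838 and 2150 had an unadjusted p under 0.05. Of 16 other CDK inhibitors and senescence genes, 2 passed, both higher. Ccnd1, which encodes cyclin D1, rose in AngII by 0.97 (FDR 0.0227) and Lmnb1, the lamin B1 gene that is lost in senescent cells, rose by 0.93 (FDR 0.0391). Of 18 tested factors of the senescence secretome, 1 passed, a share near that of all genes. Timp1 rose in AngII by 3.61 (FDR 0.0116), and the list medians of the 3 comparisons were 0.62, 0.17 and -0.15. The most abundant factors, Igfbp5 (0.26, FDR 0.600) and Vegfa (-0.46, FDR 0.396), did not pass in AngII.

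Sesn2 shares its inducer ATF4 with a further list of stress genes. Of 13 such genes tested, 2 fell and 1 rose in AngII, where 2.2% of all genes passed as lower and 2.9% as higher. Atf3, an immediate early stress factor, fell from 74.4 and 34.2 to 13.98 and 10.6 CPM (log2 fold change -2.14, FDR 0.0426), and Ppp1r15a, the phosphatase subunit that ends the integrated stress response, fell by 1.09 (FDR 0.0348). Psat1, an enzyme of serine synthesis, rose by 1.23 (FDR 0.0138). The medians of this list were -0.39, -0.13 and -0.35 in the 3 comparisons, and Atf3 stayed at 7.41 to 14.2 CPM in the later groups (log2 fold changes -2.32 and -2.36, FDR 0.199 and 0.0942).

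To set the transcripts beside their promoters, the 250 bases before each start were read from RefSeq on GRCm38.p6, which gave 14 windows for 9 of the 10 genes, all but Trp53inp1. The p53 half-site, the decamer that p53 binds in pairs, was searched without mismatch on both strands, and 7.13% of 32851 mouse windows of this length hold at least 1. It was found in 4 windows, those of Cdkn1a, Mdm2, Ccng1 and Trp53. In the Cdkn1a window before the start at 29093769 it was not found. The Cdkn1a window before the start at 29090979 holds it at bases -73 to -64 and again at -51 to -42, with 12 bases between them. It overlapped none of the other motifs searched, namely the E-box CACGTG (in 6.02% of windows, and here in 1 window each of Bbc3 and Gdf15), the ATF4 composite TGATGNAA (3.45%) and the D-box TTATGTAA (0.819%), of which the last 2 were in none of the 14. Windows are printed 5′ to 3′ on the strand of the gene, with p53 half-sites in capitals. They are the Cdkn1a window that holds half-sites and the windows of Mdm2 and Sesn2. Cdkn1a is the gene that fell in AngII+3W, and Mdm2 is a p53 target that passed in no comparison. Sesn2 lay below CTRL in all 3 groups without passing.
Cdkn1a, chr17:29090729-29090978, plus strand: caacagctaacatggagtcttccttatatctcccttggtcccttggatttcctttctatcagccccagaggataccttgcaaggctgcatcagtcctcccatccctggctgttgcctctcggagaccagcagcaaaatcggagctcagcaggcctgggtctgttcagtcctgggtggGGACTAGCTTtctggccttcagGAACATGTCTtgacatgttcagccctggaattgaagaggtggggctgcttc
Mdm2, chr10:117710759-117711008, minus strand: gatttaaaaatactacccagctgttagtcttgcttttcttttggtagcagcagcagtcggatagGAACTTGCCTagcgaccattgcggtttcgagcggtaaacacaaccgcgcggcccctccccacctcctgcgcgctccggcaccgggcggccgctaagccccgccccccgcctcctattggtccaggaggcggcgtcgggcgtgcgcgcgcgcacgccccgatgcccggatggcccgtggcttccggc
Sesn2, chr4:132510457-132510706, minus strand: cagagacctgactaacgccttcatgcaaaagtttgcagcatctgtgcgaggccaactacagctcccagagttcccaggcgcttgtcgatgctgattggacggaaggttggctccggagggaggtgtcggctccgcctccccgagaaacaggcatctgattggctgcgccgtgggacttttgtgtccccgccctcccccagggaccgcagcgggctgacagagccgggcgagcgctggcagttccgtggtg

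The windows with a half-site thus belong to Cdkn1a, which was lower in AngII+3W, and to Mdm2, Ccng1 and Trp53, none of which passed the threshold in any of the 6 comparisons. A match describes these letters and is not evidence of binding. On the genome, Cdkn1a overlaps the opposite-strand transcript AC167363.2, of which 12.6% of the longest Cdkn1a transcript is a perfect match, and a processed copy, Trp53-ps, matches 10.7% of the longest Trp53 transcript at 97.7% identity. Whether counting used the strand is not given in the sources used here, so that reads of these overlapping or copied stretches may be shared between genes.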

How the data were processed

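RNA-sequencing of aorta was analysed in 8 libraries, 2 for each group, mapped to groups by their labels. The authors quantified reads with Salmon on Ensembl cDNA of GRCm38 through ARMOR, and tximeta gathered transcript estimates per gene. The deposited table holds expected counts per gene as whole numbers, neither normalized nor filtered. Libraries were sequenced in a single lane, with total counts of 18130441 to 21498200.

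Genes were filtered with filterByExpr, scaled by TMM and tested with the quasi-likelihood F test of edgeR 4.0.16 in R 4.3.3, in its older form, with all 8 libraries in 1 model (4 residual degrees of freedom). P-values are two-sided and adjusted over 17182 genes by Benjamini-Hochberg (FDR, threshold 0.05). The SE of a log2 fold change is its size divided by the square root of F. Correlations used log2 CPM (prior count 2). The script was tested on simulated data. Copies of the genes were searched with BLAST 2.17.0 (at least 90% identity), and positions are from GENCODE.

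The members and gene lists were chosen with earlier results of these data known. By a rule, the text names all members, up to 4 called genes of each list (or the 2 most abundant where fewer than 2 were called), and the 5 genes most correlated with Trp53inp1 and with Cdkn1a. Npas2, Dbp, Per3, Nr1d2, Tef, Hlf, Nr1d1, Per2, Clock and Per1 were chosen after their values were seen. Alternatives were DESeq2 size factors, library totals, 2 other filters, DESeq2 1.42.0, the likelihood ratio test, limma-voom (3.58.1), newer and robust fits, a fit of the 2 groups compared, a replicate block and each library left out, where a lone library is assumed to vary like the other groups. Removal of mitochondrial genes was added after the data were seen.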

Additional observations from a re-analysis of the deposited data

Results flagged for a closer look

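Among the members and the other p53 targets, Cdkn1a and Ckap2 passed when AngII+3W was compared with AngII directly by the edgeR quasi-likelihood test, as did 1.61% of all genes, 276 in number. The log2 fold change of Cdkn1a was -1.66 (FDR 0.0308), with both AngII+3W libraries below both AngII libraries. Ckap2 was lower by a log2 fold change of -2.44 (FDR 0.0294), with 4.32 and 3.93 CPM in AngII and 0.860 and 0.645 CPM in AngII+3W. The call of Cdkn1a was lost when only the 2 groups were fitted (FDR 0.0958), where 0% of all genes passed.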

How the results depend on the processing

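With 2 libraries a group, the numbers of called genes moved more than the log2 fold changes. The count of members called in AngII+3W against CTRL was 1, where 0.285% of all genes passed. It became 0 with library totals alone, limma-voom, only the 2 groups compared and the replicate block. In that order, 0.00582%, 0.256%, 0% and 0.0233% of all genes passed there. It became 2 (Cdkn1a and Sesn2) with every gene of at least 1 count, DESeq2 and the likelihood ratio test. In that order, 0.819%, 3.4% and 3.24% of all genes passed there. The count in AngII+3W against AngII (1) became 0 with only the 2 groups compared, where 0% of all genes passed. The count of 0 in AngII+2W against CTRL became 1 with DESeq2 (2.17% of all genes). That in AngII+2W against AngII became 1 with DESeq2, the likelihood ratio test and only the 2 groups compared (3.99%, 4.46% and 5.34% of all genes). That in AngII+3W against AngII+2W became 2 with DESeq2 and the likelihood ratio test (1.29% and 1.59% of all genes). The last 2 counts include Trp53inp1, which was chosen on its levels in these libraries. The count of other p53 targets in AngII (4, beside 5.1% of all genes) became 2 with library totals (3.62%) and 7 with the likelihood ratio test (9.96%). In AngII+2W (0) it became 1 with DESeq2 (2.17%) and 2 with the likelihood ratio test (2.44%). In AngII+3W (1) it became 0 with library totals (0.00582%), only the 2 groups compared (0%) and the replicate block (0.0233%). There it became 2 with DESeq2 (3.4%) and the likelihood ratio test (3.24%). Several of these counts also changed in fits that left out a library, as did the number of all genes that passed. The cause of these changes was not tested.

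The log2 fold change of Trp53 in AngII turned to -0.0070 with limma-voom and -0.0079 with the replicate block. With each library left out, directions of values that were not called turned. The ranges in AngII were -0.30 to 0.26 for Trp53, -0.58 to 0.21 for Cdkn1a, -0.064 to 0.12 for Mdm2, -0.32 to 0.16 for Ccng1, -1.04 to 0.89 for Gdf15 and -0.021 to 0.50 for Bbc3. In AngII+2W they were -0.41 to 0.078 for Trp53inp1, -0.18 to 0.10 for Trp53, -0.52 to 0.27 for Cdkn1a, -0.34 to 0.32 for Cdkn2b, -0.16 to 0.017 for Mdm2 and -0.34 to 0.13 for Ccng1. In AngII+3W they were -0.55 to 0.072 for Trp53, -0.82 to 0.11 for Cdkn2b, -0.087 to 0.16 for Mdm2 and -0.38 to 0.72 for Ccng1. The labels give no pairing, and the correlations between groups of the difference of replicates 1 and 2 were above 0.1 for 4 of 6 pairs of groups (up to 0.452) and below it for 2 (0.011 and 0.043), so that pairing was not established and the replicate block is given as an alternative. Depth limits Cdkn2a and Gdf15, at no more than 9 and 21 counts.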

Other observations

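Among the skeletal muscle markers of AngII+3W replicate 1 was Myh1 (1042 CPM against at most 7.70 in the other libraries), a myosin heavy chain of fast muscle fibers, while Ckm, the muscle creatine kinase, was at 244 CPM. Among adipocyte markers, Ucp1, the uncoupling protein of brown fat, ranged from 409 to 1879 CPM and was not called in any comparison with CTRL.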
